A study of Homo sapiens with 12 samples.

Results

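The genes described here encode SR proteins, heterogeneous nuclear ribonucleoproteins (hnRNPs), the CLK kinases and a few splicing factors related to them. They were chosen by name among the protein-coding rows: names that start with SRSF or HNRNP, together with CLK1, CLK2, CLK3, CLK4, TRA2A, TRA2B, RSRP1, RBM39 and SON. The rule took 48 of 21462 listed genes, namely 12 SR proteins, 27 hnRNPs, 4 CLK kinases, the 2 SR-like activators TRA2A and TRA2B, and 3 other proteins of nuclear speckles or related to SR proteins (RSRP1, RBM39 and SON). RNA was sequenced from LN229, an established human glioblastoma line with wild-type IDH, in 6 cultures given 100 mM metformin for 5 h and in 6 control cultures, which the labels call untreated and the paper describes as given vehicle. Metformin lowers blood glucose and is taken by people with diabetes, and both groups were grown in the same medium with serum. The cultures are described as independent experiments, and all come from 1 line and 1 dose.

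Total exon reads ranged over 14331617 to 19516144 in metformin libraries (median 18996071) and over 19583535 to 21836186 in control libraries (median 20816197). Metformin replicate 1 had the lowest total, and it stood apart from the other metformin libraries in most genes below, so results are given with and without it. Of the glioma markers, VIM, CD44, NES and EGFR were expressed, while SOX2, S100B and GFAP were at or near 0. EGFR, at 3.42 to 31.6 TPM (the expression unit scaled for gene length and depth) in metformin and 32.1 to 65.3 TPM in control, and OLIG2, at 2.67 to 4.47 TPM in metformin and 6.63 to 8.97 TPM in control, were lower in metformin without overlap, and their part in the results was not tested. The leukocyte, endothelial and epithelial markers PTPRC, PECAM1, CDH5, EPCAM and CDH1 were at or near 0 in both groups, and CD68 was at 9.23 to 27.9 TPM in metformin and 21.1 to 22.8 TPM in control. In bulk libraries fewer cells of a kind and less RNA per cell cannot be told apart.

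SR proteins bind exons and recruit the spliceosome through a domain rich in arginine and serine, whose phosphorylation by CLK and SRPK kinases sets their activity and their place in the nucleus. hnRNPs coat new transcripts and often keep splice sites from being used. Many genes of both families control their own mRNA through introns that stay in the transcript or through exons that trigger its decay, and the transcripts of CLK1 and CLK4 are known for introns that are held back in the nucleus and spliced out under stress.

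Introns annotated as retained in some transcripts are background to the read counts below. The 5′ splice sites of some of them in CLK1, CLK3, CLK4, RSRP1, TRA2A and SRSF5 are shown first, as a selection. There are 4 such introns in CLK1, 4 in CLK4, 2 in CLK3, 4 in SRSF5, 1 in RSRP1 and 1 in TRA2A, and CLK2 has 0. Each window holds the last 10 bases of the exon and the first 20 bases of the intron, and the capitals mark the first 2 bases of the intron. Introns are numbered in the principal transcript of GENCODE release 29 (GRCh38), and each of them lies inside an exon of a transcript annotated there as retaining an intron. CLK1 intron 3 lies at chr2:200860216-200861237 and intron 4 at chr2:200859747-200860124, both on the minus strand. CLK4 intron 3 lies at chr5:178617435-178618555 and intron 4 at chr5:178616949-178617343, also on the minus strand. CLK3 intron 4 lies at chr15:74622217-74622493 on the plus strand, and RSRP1 intron 3 at chr1:25243634-25245149 on the minus strand. TRA2A intron 7 lies at chr7:23505570-23505745 on the minus strand, and SRSF5 intron 6 at chr14:69769252-69770466 on the plus strand.
CLK1 intron 3: ttcacatgggGTatgaacgtttttaaaaca
CLK4 intron 3: gtcacgttcgGTatgattggttttgttttc
CLK1 intron 4: agtgcaagatGTatagaatatttttcaaca
CLK4 intron 4: agagcaagatGTatagaatatttttcaaca
CLK3 intron 4: caagagcgatGTacagccacctttcgtaaa
RSRP1 intron 3: aaagcctgaaGTaagtattctaggtttgtc
TRA2A intron 7: tacagcccaaGTatgtgaactttacttttg
SRSF5 intron 6: cagctggcagGTttgttgaaatacagtttt
The windows of intron 4 in CLK1 and CLK4 match at 29 of 30 bases, and those of intron 3 at 17 of 30. Windows of the same size at the 3′ splice sites match at 14 of 30 bases for intron 4 and at 16 of 30 for intron 3. In all, 54 introns of 21 members lie inside such retained-intron exons, with lengths of 56 to 2839 bases and a median of 419. Of these, 12 (22.2%) begin with GTAAGT, against 629 of 7878 introns of the same kind in all genes (7.98%), and 12 (22.2%) begin with GTAT, against 558 of 7878 (7.08%), both read on the strand of the gene. These shares are descriptions of the annotation. The deposited tables count intron reads per gene and not per intron, so no value below can be placed on one of the printed introns.

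Of the 48 genes, 43 had a mean of at least 1 TPM over the 12 libraries and were tested. The other 5 were SRSF12, with TPM of 0 to 0.139 in metformin and 0 to 0.0303 in control, and HNRNPCL1, HNRNPCL2, HNRNPCL3 and HNRNPCL4, genes related to HNRNPC that had at most 2 exon reads summed over either group. Expression was compared with limma on log2(TPM + 1), with Benjamini-Hochberg adjustment over all 11306 genes tested, and a gene was called at an adjusted p under 0.05. RSRP1 and RBM39 rose, CLK2, SRSF8 and HNRNPA1L2 fell, and the other 38 did not pass. Over all genes tested 8.0% were called higher and 41.8% lower in metformin. The median log2 fold change was -0.09 over the 43 genes and -0.37 over all genes, and 33 of the 43 lay above the median of all genes.

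The number of calls rested on the scaling and on metformin replicate 1. In edgeR's quasi-likelihood test on exon read counts, with TMM factors, 26 of the 43 were higher and 2 lower, where 24.5% of all genes were higher and 26.0% lower, and the median of all genes shifted to 0.03. The change of 17 members turned from negative in limma to positive in edgeR, and 8 of these were called higher (SRSF3, SRSF9, TRA2B, HNRNPA1, HNRNPA3, HNRNPDL, HNRNPU and HNRNPUL1). Leaving out metformin replicate 1, limma on TPM called 20 higher and 8 lower, where 17.1% of all genes were higher and 49.3% lower. RSRP1 alone had all metformin libraries above all control libraries in TPM, and CLK2, HNRNPA0, HNRNPA1L2, HNRNPD, SRSF7 and SRSF8 had all of them below. The same measure over all genes tested gave 4.69% higher and 37.3% lower. With metformin replicate 1 left out, 13 of the 43 lay wholly above control and 6 wholly below, where 11.0% and 39.3% of all genes did.

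**Figure D1:**
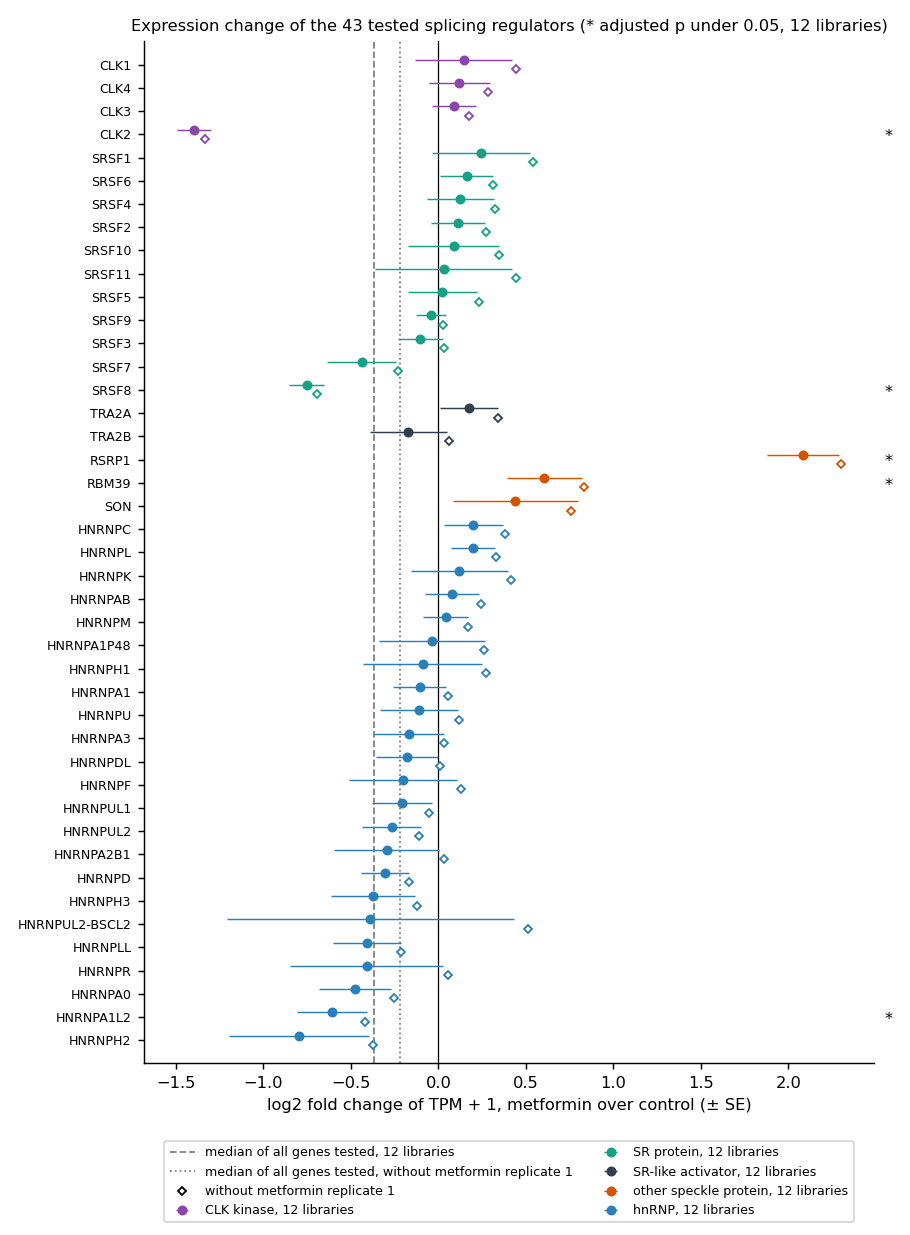
Log2 fold change of TPM + 1, metformin over control, for the 43 tested genes in order of role, as circles with the standard error (12 libraries) and open diamonds (without metformin replicate 1). The dashed and dotted lines mark the median of all genes tested, and stars mark an adjusted p under 0.05 over 12 libraries: RSRP1 lies at 2.08 and CLK2 at -1.40.

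The 4 CLK kinases, which phosphorylate SR proteins, did not move as a group. CLK2 fell to a median of 17.1 TPM in metformin (13.2 to 18.9), against 45.1 TPM in control (42.6 to 48.9), and the groups did not overlap. In log2 terms CLK2 changed by -1.40 ± 0.09 (standard error, limma adjusted p = 1.53e-07). The fall kept its call when each library was left out in turn and in edgeR (-1.02, adjusted p = 2.09e-05). HCN3, a gene on the opposite strand beside CLK2 whose reads can be counted in part with it, had 18 to 54 exon reads in metformin and 121 to 172 in control, and its part in the fall of CLK2 was not tested.

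CLK1 had 19.1 TPM in metformin replicate 1 and 62.1 to 78.0 TPM in the other metformin libraries (group median 66.5), against 47.6 to 51.8 TPM in control (median 51.2). The 5 other metformin libraries thus lay above every control library, and replicate 1 lay below them all. Over all libraries the log2 fold change was 0.14 ± 0.28 (limma adjusted p = 0.682), and without replicate 1 it was 0.44 ± 0.06 (adjusted p = 2.11e-05). Here and below the value after ± is the standard error of a log2 fold change from limma. CLK4, the closest relative of CLK1, had 3.04 TPM in metformin replicate 1 and 6.55 to 7.28 TPM in the others, against 4.58 to 6.96 TPM in control. Its log2 fold change was 0.12 ± 0.18 (limma adjusted p = 0.587), or 0.28 without metformin replicate 1 (adjusted p = 0.0123), and the groups overlapped. CLK3 had a median of 6.79 TPM in metformin (4.63 to 7.96) and 5.95 TPM in control (5.26 to 7.32), an overlap that gave 0.09 ± 0.13 in log2 (limma adjusted p = 0.568). In edgeR on exon reads these 3 kinases were called higher, at 0.59 for CLK1 (adjusted p = 0.00309), 0.54 for CLK4 (adjusted p = 0.000222) and 0.52 for CLK3 (adjusted p = 0.00157).

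RSRP1, which encodes an arginine and serine rich protein, had the largest rise of the 43 genes. It had a median of 160 TPM in metformin (67.0 to 180), against 32.4 TPM in control (31.9 to 35.6), and even metformin replicate 1, at 67.0 TPM, lay above every control library. The log2 fold change was 2.08 ± 0.20 (limma adjusted p = 3.73e-06). RHD overlaps RSRP1 and had only 3 to 8 exon reads in metformin and 1 to 14 in control, beside 2148 to 5349 exon reads of RSRP1 in metformin and 1068 to 1192 in control.

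RBM39, a splicing coactivator that works with U2AF, had 63.8 TPM in metformin replicate 1 and 146 to 174 TPM in the other metformin libraries (group median 169), against 86.0 to 102 TPM in control (median 90.7). All metformin libraries but replicate 1 lay above the control range. The log2 fold change of 0.61 ± 0.22 (limma adjusted p = 0.0339) lost its call without any 1 of metformin replicates 2 to 6 or control replicates 1, 2, 4, 5 and 6 (adjusted p of 0.0513 to 0.0700). Without metformin replicate 1 it was 0.83 (adjusted p = 7.86e-08). SON, a scaffold of nuclear speckles, had a median of 130 TPM in metformin (34.2 to 172) and 71.6 TPM in control (59.7 to 120). The groups overlapped and the log2 fold change of 0.44 did not pass (limma adjusted p = 0.321), while without metformin replicate 1 it was 0.76 (adjusted p = 0.00952).

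TRA2A and TRA2B activate splicing through exonic enhancers. TRA2A had 51.5 TPM in metformin replicate 1 and 94.3 to 109 TPM in the other metformin libraries, against 75.0 to 90.9 TPM in control. Its log2 fold change was 0.18 ± 0.17 (limma adjusted p = 0.394), and 0.34 without metformin replicate 1 (adjusted p = 0.000165). TRA2B had 61.6 TPM in metformin replicate 1 and 144 to 176 TPM in the others, against 141 to 169 TPM in control, and the groups overlapped even without that library. Its log2 fold change of -0.17 (limma adjusted p = 0.531) turned to 0.24 in edgeR (adjusted p = 0.0285).

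**Figure D2:**
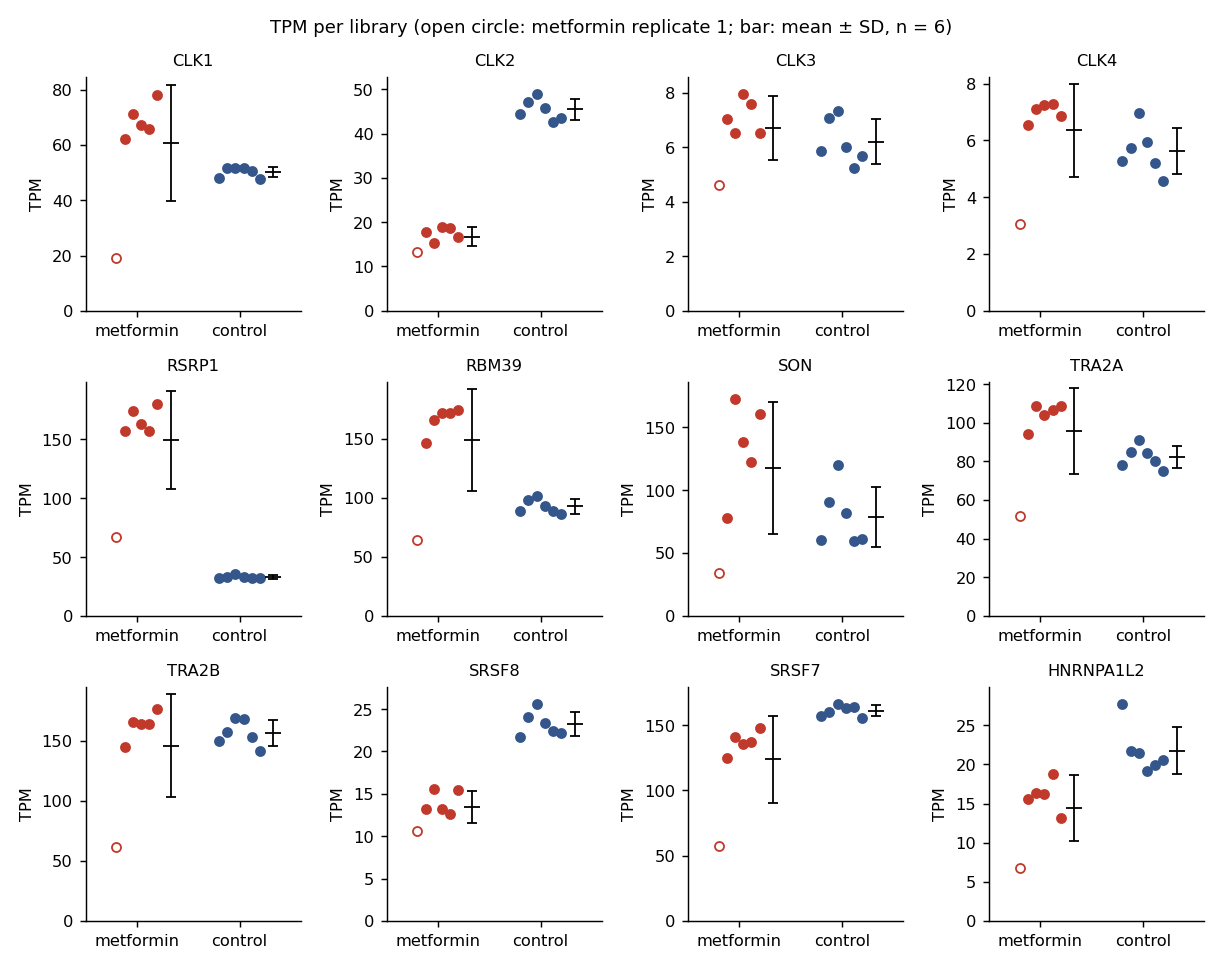
TPM in each library for 12 genes, metformin left of control, with the mean and SD beside the points (n = 6 each) and metformin replicate 1 as an open circle. RSRP1 lies higher and CLK2 and SRSF8 lie lower in every metformin library than in any control library, and in CLK1 and RBM39 metformin replicate 1 alone lies below the control range.

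Of the 12 SR proteins, 11 were tested and SRSF8 was the only one called in limma. In edgeR on exon reads 8 of the 11 were higher and SRSF8 lower, where 24.5% of all genes were higher and 26.0% lower. The 8 were SRSF1, SRSF2, SRSF3, SRSF4, SRSF5, SRSF6, SRSF9 and SRSF10. SRSF8, a copy of SRSF2 that arose by retroposition and has a single coding exon, fell to a median of 13.2 TPM in metformin (10.6 to 15.6), against 22.9 TPM in control (21.7 to 25.6). The groups did not overlap, the log2 fold change was -0.75 ± 0.10 (limma adjusted p = 4.81e-05), and it was -0.37 in edgeR (adjusted p = 0.0127). SRSF2 itself, an activator that binds exonic enhancers, had 202 TPM in metformin replicate 1 and 391 to 403 TPM in the other metformin libraries, against 313 to 342 TPM in control.

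Most other SR proteins had this shape, with metformin replicate 1 below and the rest at or above control. Leaving it out, limma called SRSF1, SRSF2, SRSF4, SRSF5, SRSF6, SRSF10 and SRSF11 higher and SRSF7 and SRSF8 lower. SRSF3 and SRSF9 did not pass in limma with or without it. SRSF1, the prototype of the family, had 75.2 TPM in metformin replicate 1 and 214 to 279 TPM in the others, against 159 to 206 TPM in control. Its log2 fold change was 0.24 (limma adjusted p = 0.482) over all libraries and 0.54 (adjusted p = 8.68e-05) without metformin replicate 1. SRSF7, which also takes part in mRNA export, had 57.2 to 148 TPM in metformin and 155 to 166 TPM in control, without overlap, and did not pass over all libraries (log2 fold change -0.44, limma adjusted p = 0.0803). In edgeR it was at -0.03 (adjusted p = 0.728). Summed over the SR proteins, TPM was 1051 in metformin replicate 1 and 1973 to 2172 in the other metformin libraries, against 1766 to 1911 in control. The genes given values here beyond SRSF8 were chosen after their values were seen.

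Of the 27 hnRNPs, 23 were tested, and HNRNPA1L2 was the only one called in limma. HNRNPA1L2, an intronless copy of HNRNPA1, fell to a median of 15.9 TPM in metformin (6.74 to 18.8), against 21.0 TPM in control (19.2 to 27.7), and the groups did not overlap. The log2 fold change of -0.61 ± 0.20 (limma adjusted p = 0.0244) was -0.54 without control replicate 1 (adjusted p = 0.0561) and -0.24 in edgeR (adjusted p = 0.156). Both lost the call. Only 46.4% to 71.1% of its exon reads in metformin and 63.5% to 74.5% in control were unique to it, so part of its level may belong to HNRNPA1 or its other copies. HNRNPA1, which binds exonic and intronic silencers, was at 770 TPM in metformin replicate 1 and 1352 to 1590 TPM in the others, against 1412 to 1467 TPM in control. Its log2 fold change was -0.11 in limma (adjusted p = 0.576) and 0.30 in edgeR (adjusted p = 0.00102).

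The median log2 fold change of the 23 hnRNPs was -0.20. In limma none was called higher over all libraries, and none was higher at an unadjusted p under 0.05 either, since RSRP1 and RBM39 were the only members that were. The direction of this group rested on the scaling, since edgeR called 10 of the 23 higher and 0 lower. Summed over the hnRNPs, TPM was 3342 in metformin replicate 1 and 6954 to 8443 in the other metformin libraries, against 6807 to 7439 in control. Without metformin replicate 1, limma called 7 higher (HNRNPAB, HNRNPC, HNRNPH1, HNRNPK, HNRNPL, HNRNPM and the readthrough gene HNRNPUL2-BSCL2) and 5 lower (HNRNPA0, HNRNPA1L2, HNRNPD, HNRNPH2 and HNRNPLL). HNRNPC, which binds uridine tracts, had 217 TPM in metformin replicate 1 and 426 to 473 TPM in the other metformin libraries, against 334 to 370 TPM in control. HNRNPD, or AUF1, which binds AU-rich elements, had 209 to 407 TPM in metformin and 410 to 428 TPM in control, without overlap, and changed by -0.31 in log2 (limma adjusted p = 0.081), which turned to 0.10 in edgeR (adjusted p = 0.222). The other 11 hnRNPs tested (HNRNPA1, HNRNPA1P48, HNRNPA2B1, HNRNPA3, HNRNPDL, HNRNPF, HNRNPH3, HNRNPR, HNRNPU, HNRNPUL1 and HNRNPUL2) did not pass in limma with or without metformin replicate 1, and without it their log2 fold changes ran from -0.12 to 0.26. HNRNPA1P48, named as a pseudogene copy of HNRNPA1 although listed as protein-coding, was the lowest of them at 0.0852 to 3.76 TPM in metformin and 1.18 to 2.92 TPM in control.

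Intron reads were tested relative to the exon reads of the library, with edgeR's quasi-likelihood test, wherever the mean over libraries reached 10 intron reads. Over whole libraries, intron reads took 6.21% ± 1.37 of gene reads in metformin and 6.02% ± 0.854 in control (SD, n = 6 each), which did not differ beyond the spread (exact permutation test, two-sided, p = 0.790). Of the 48 genes 38 could be tested: besides the 5 below 1 TPM, SRSF2, SRSF8, HNRNPA0, HNRNPA1L2 and HNRNPH2 had too few intron reads. Intron reads rose in 18 of the 38, and none was called lower. None of the 38 was lower at an unadjusted p under 0.05 either, and DESeq2 called 19 higher and none lower. Over all genes tested 34.5% were higher and 23.5% lower, and the median log2 fold change was 0.79 over the 38 genes and 0.21 over all. On leaving out metformin replicate 1, 28 of the 38 were higher, where 41.0% of all genes were higher and 27.7% lower.

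By role, the 18 were CLK3 of 4 kinases, SRSF5 and SRSF10 of 9 SR proteins, TRA2A, RBM39 and RSRP1, and 12 of 20 hnRNPs. SRSF10, which represses splicing when dephosphorylated, had 24 intron reads in metformin replicate 1 and 601 to 1831 in the other metformin libraries, against 227 to 514 in control. SRSF5, an activator of exon inclusion, had 15 intron reads in metformin replicate 1 and 360 to 655 in the others, against 135 to 208 in control. TRA2A had 89 and 440 to 1219, against 233 to 492 in control. In all 3 genes metformin replicate 1 was the lowest of the 12 libraries. The log2 changes of intron reads were 2.07 for SRSF10 (edgeR adjusted p = 0.00426), 1.76 for SRSF5 (adjusted p = 0.00327) and 1.67 for TRA2A (adjusted p = 0.0018), and they kept their calls when each library was left out in turn.

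A gene that is expressed more has more intron reads too, so the ratio of intron to exon reads within each gene was tested as the interaction of read class and condition, with the library as a block. This ratio cancels the depth of the library and any change of level that the intron and exon reads of a gene share. The counts cannot tell retained introns from RNA not yet spliced, so a change of the ratio is not a measure of retention alone. In 5110 of 6855 genes whose annotated lengths can tell, the exon length in the tables was that of the coding and decay-prone transcripts together, which leaves bases found only in retained-intron transcripts to the introns. Among the members the lengths could tell in 23, and 18 of them matched. RSRP1 matched neither length, and the bases of its annotated retained introns lie within exons of its coding or decay-prone transcripts, so its reads there may have been counted as exon reads. SRSF8, HNRNPA0 and HNRNPA1L2, whose listed lengths leave no intron, still had some intron reads. SRSF8 had 2 to 9 in metformin and 3 to 8 in control, HNRNPA0 0 to 3 and 0 to 6, and HNRNPA1L2 0 to 11 and 5 to 15. The origin of these reads was not tested.

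The ratio of all reads rose in 8 of the 38 genes, all of them hnRNPs, and fell in 2, RSRP1 and CLK4. Over all genes tested 20.3% were higher and 14.5% lower. The median log2 change of the ratio was 0.21 over the 38 genes and 0.14 over all genes. When metformin replicate 1 was left out, 19 of the 38 were higher and the same 2 lower, with medians of 0.45 and 0.18, where 34.8% of all genes were higher and 21.5% lower. In the share of intron reads, 4 genes lay wholly above control (HNRNPA2B1, HNRNPLL, HNRNPUL1 and HNRNPUL2-BSCL2) and RSRP1 wholly below, where 10.7% and 9.55% of all genes did. With metformin replicate 1 left out 11 lay wholly above, where 19.3% of all genes did and 13.8% lay below. Setting the median of all genes to 0 added HNRNPK as lower (-0.59, edgeR adjusted p = 0.0342), and 18.9% of all genes were then higher and 21.2% lower. Limma on the log ratio called 7 higher and 1 lower, without HNRNPH3 and CLK4. On unique reads, which were tested after the data were seen, 34 of the genes could be tested. The ratio was then higher in 6 (HNRNPD, HNRNPH3, HNRNPLL, HNRNPM, HNRNPUL1 and SON) and lower in RSRP1 and CLK4, where 20.7% of all genes were higher and 14.5% lower. HNRNPA2B1 was no longer called, and HNRNPUL2 and HNRNPUL2-BSCL2 had too few unique reads to be tested.

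**Figure D3:**
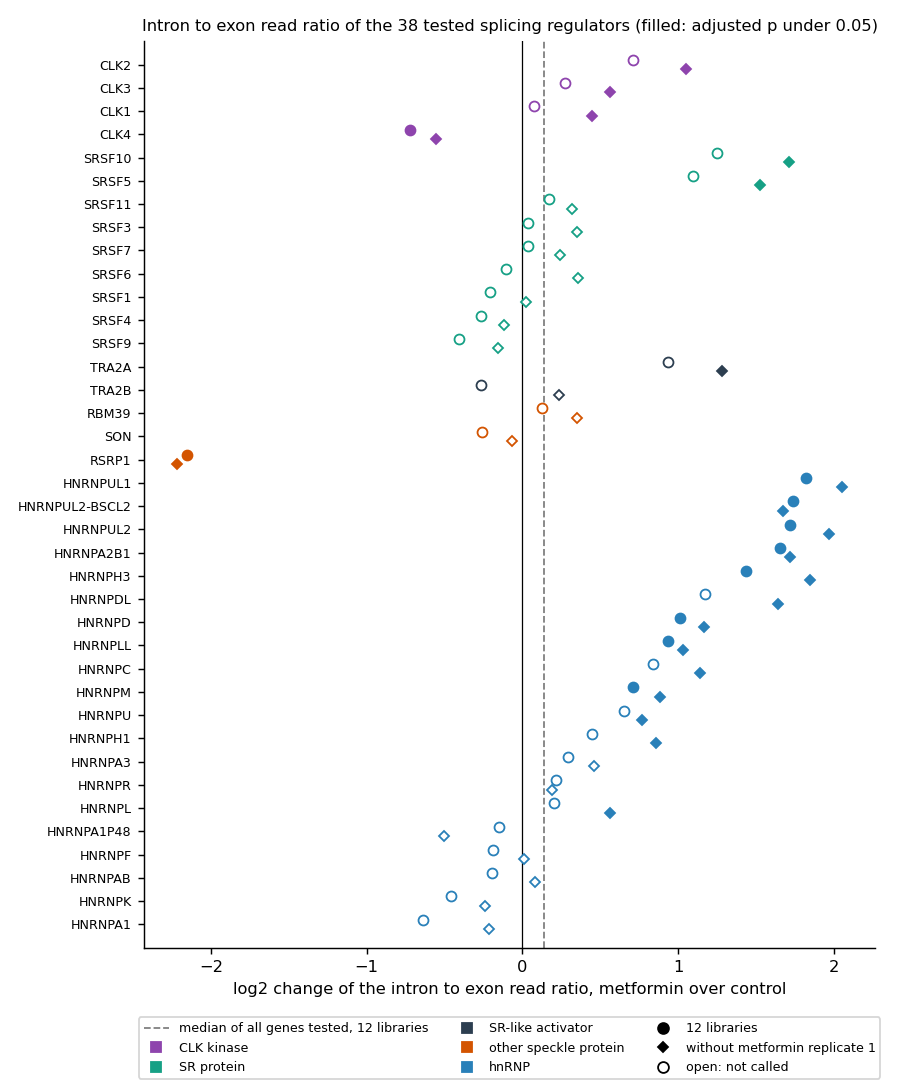
Log2 change of the intron to exon read ratio, metformin over control, for the 38 testable genes by role, with circles for 12 libraries and diamonds without metformin replicate 1, filled where the adjusted p was under 0.05. RSRP1 lies lowest at -2.15, and HNRNPUL1, HNRNPUL2-BSCL2, HNRNPUL2 and HNRNPA2B1 lie between 1.65 and 1.82 on all reads, while on unique reads HNRNPA2B1 was at 0.36 and not called, and HNRNPUL2 and HNRNPUL2-BSCL2 could not be tested.

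RSRP1 had the largest change of the ratio in either direction, and it was a fall. Intron reads made up 8.16% of its gene reads in metformin at the median (6.30% to 9.90%), against 27.7% in control (26.3% to 30.9%), with no overlap and with metformin replicate 1 the highest of its group. The log2 change of the ratio was -2.15 (edgeR adjusted p = 1.23e-06), and leaving out each library in turn gave -2.21 to -2.07. The number of all its intron reads was close in both groups, 236 to 482 in metformin (median 437) and 413 to 489 in control (median 440). Its unique intron reads were fewer in metformin, 145 to 236 against 239 to 282 in control, without overlap. Relative to the exon reads of the library, all its intron reads were slightly higher (log2 0.37, edgeR adjusted p = 0.0204, and 0.0533 without control replicate 4). On unique reads this was 0.15 (adjusted p = 0.364), and it was also not called with TMM factors from intron reads or with a replicate block, while its exon reads rose by 2.53 in log2 in edgeR (adjusted p = 2.86e-10).

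Of the 20 hnRNPs tested, 8 had a higher ratio and 12 were not called, among them HNRNPA1 at -0.63 and HNRNPK at -0.46. HNRNPUL1, a nuclear RNA-binding protein related to HNRNPU, had 10.7% intron reads in metformin (4.24% to 13.6%), against 2.80% in control (2.43% to 3.54%), without overlap, and metformin replicate 1 was the lowest of its group. The log2 change was 1.82 (edgeR adjusted p = 0.000355), and 1.94 on unique reads (adjusted p = 0.000679). Its TPM of 108 to 244 in metformin and 195 to 248 in control overlapped. TGFB1, on the opposite strand beside it, had 1988 to 2898 exon reads in metformin and 1939 to 2442 in control, and its part in the intron reads was not tested.

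HNRNPA2B1, which binds nascent RNA and is known for its role in sorting RNA, had 6.54% intron reads in metformin (4.39% to 10.6%), against 2.20% in control (1.85% to 3.43%), without overlap. The log2 change was 1.65 (edgeR adjusted p = 0.000287), and here metformin replicate 1, at 5.52%, lay within the other metformin libraries. The call was lost on unique reads, which leave out reads shared between genes. Unique intron reads of HNRNPA2B1 were 76 in metformin replicate 1 and 433 to 1173 in the other metformin libraries. In control they were 461 to 823, an overlap. All its intron reads numbered 390 in metformin replicate 1 and 1070 to 2892 in the others, against 509 to 890 in control. On unique reads the log2 change of its ratio was 0.36 (edgeR adjusted p = 0.41). NFE2L3 and CBX3 overlap HNRNPA2B1 on the opposite strand, and their part in these values was not tested. HNRNPLL, a relative of HNRNPL that controls alternative splicing in lymphocytes, had 16.2% in metformin (10.9% to 18.2%), against 8.77% in control (7.04% to 10.5%), also without overlap. Its log2 change was 0.94 (edgeR adjusted p = 0.00189). HNRNPA2B1 and HNRNPLL, like HNRNPH3, HNRNPD and HNRNPM below, were chosen for the text after their values were seen.

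HNRNPUL2 had 0.863% intron reads in metformin replicate 1 and 2.11% to 5.49% in the other metformin libraries, against 0.753% to 1.29% in control. Its log2 change was 1.72 (edgeR adjusted p = 0.00242), but only 0 to 7 of its intron reads in metformin and 1 to 6 in control were unique, of 6 to 82 and 11 to 22. HNRNPUL2-BSCL2 is a readthrough gene that spans HNRNPUL2 and BSCL2 and shares nearly all its reads with them, so its values are uncertain. It had 4 of 8 reads in introns in metformin replicate 1 and 16.6% to 29.2% in the other metformin libraries, against 7.02% to 10.0% in control (log2 change 1.74, edgeR adjusted p = 0.000111). Of its exon reads, 0.839% to 25% in metformin and 0.367% to 0.707% in control were unique to it. BSCL2 itself had 180 to 935 exon reads in metformin and 52 to 77 in control, and its part in the values of both genes was not tested.

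HNRNPH3, a relative of HNRNPH1, had 2.67% intron reads in metformin replicate 1 and 13.5% to 26.9% in the others, against 5.24% to 9.66% in control. Its log2 change of 1.43 (edgeR adjusted p = 0.0326) lost the call without any 1 of metformin replicates 3 to 6 or control replicates 1, 2, 4, 5 and 6 (adjusted p of 0.052 to 0.0807), and was 1.85 without metformin replicate 1 (adjusted p = 2.40e-06). HNRNPM, with a log2 change of 0.71 (edgeR adjusted p = 0.0431), lost its call without the same libraries (adjusted p of 0.0561 to 0.0993). HNRNPD had 4.28% to 9.07% in metformin and 2.79% to 6.16% in control, which overlapped, with a log2 change of 1.01 (edgeR adjusted p = 0.00795). PBLD and RUFY2 overlap HNRNPH3 on the opposite strand, and their part in its values was not tested.

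**Figure D4:**
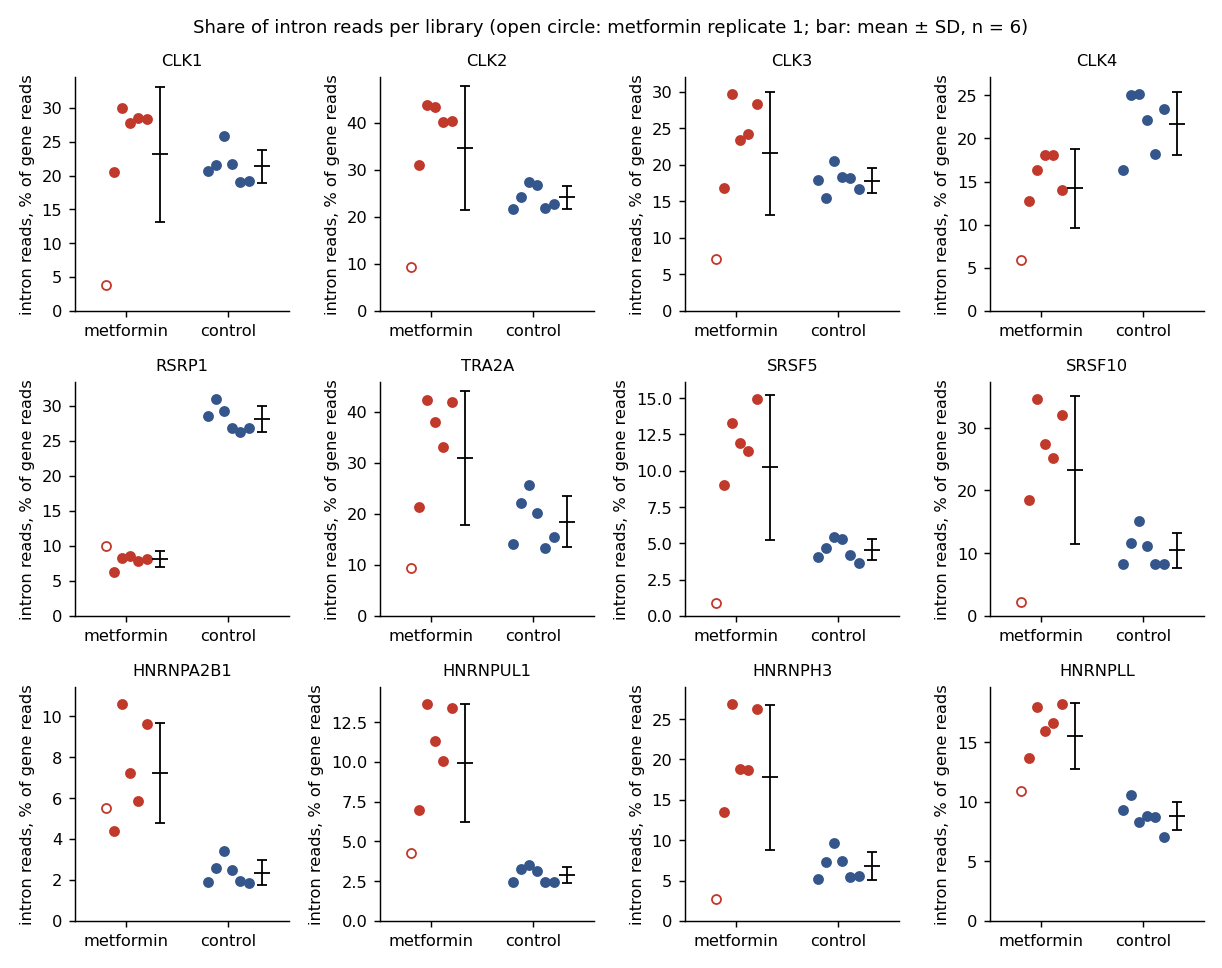
Intron reads as a percentage of all reads of a gene, per library for 12 genes, metformin left of control, with the mean and SD beside the points (n = 6 each) and metformin replicate 1 as an open circle. RSRP1 lies lower in every metformin library (6.30% to 9.90%, against 26.3% to 30.9% in control), and in SRSF5, SRSF10 and TRA2A metformin replicate 1 lies below and the other metformin libraries mostly above control.

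The CLK kinases differed in their intron shares. CLK4 had 15.2% intron reads in metformin at the median (5.93% to 18.1%), against 22.8% in control (16.3% to 25.2%), and the groups overlapped. The log2 change of the ratio of -0.72 (edgeR adjusted p = 0.0489) lost its call without any 1 of metformin replicates 2, 3 and 6 and control replicates 2 to 6 (adjusted p of 0.0544 to 0.101), and was -0.56 without metformin replicate 1 (adjusted p = 0.019). CLK4 rests on few reads, 7 to 58 intron reads in metformin and 41 to 80 in control.

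CLK1 had 3.81% intron reads in metformin replicate 1 and 20.5% to 30.0% in the other metformin libraries, against 19.1% to 25.8% in control. Its log2 change of the ratio was 0.08 over all libraries (edgeR adjusted p = 0.909) and 0.44 without metformin replicate 1 (adjusted p = 0.0231), with 4 of the 5 remaining libraries above the control range. The difference between the changes of CLK1 and CLK4 was not tested. CLK2 had 9.40% in metformin replicate 1 and 30.9% to 43.9% in the others, against 21.7% to 27.3% in control. Its log2 change was 0.71 (edgeR adjusted p = 0.157), or 1.05 without metformin replicate 1 (adjusted p = 3.30e-05). Intron reads of CLK2 were 22 in metformin replicate 1 and 132 to 230 in the others, against 216 to 299 in control, so the share was set beside a smaller number of exon reads (212 to 301 in metformin, 737 to 823 in control). CLK3 had 7.10% in metformin replicate 1 and 16.8% to 29.7% in the others, against 15.4% to 20.5% in control, with a log2 change of 0.27 (edgeR adjusted p = 0.557), or 0.57 without metformin replicate 1 (adjusted p = 0.0115). EDC3, which overlaps CLK3 on the opposite strand, had 520 to 829 exon reads in metformin and 1427 to 1690 in control, and its part in these values was not tested.

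None of the 9 SR proteins tested was called in the ratio over all libraries in edgeR or in limma on the log ratio, and SRSF5 and SRSF10 were the 2 at an unadjusted p under 0.05. SRSF5 had 0.906% intron reads in metformin replicate 1 and 9.02% to 14.9% in the other metformin libraries, against 3.63% to 5.44% in control. SRSF10 had 2.13% in metformin replicate 1 and 18.4% to 34.6% in the others, against 8.19% to 15.1% in control. In each of the 2 genes, 5 metformin libraries lay above every control library and 1 below them all. Over all libraries the log2 changes were 1.09 for SRSF5 (edgeR adjusted p = 0.108) and 1.25 for SRSF10 (adjusted p = 0.102), and without metformin replicate 1 they were 1.53 (adjusted p = 7.06e-07) and 1.72 (adjusted p = 5.18e-06). TRA2A had 9.38% in metformin replicate 1 and 21.3% to 42.3% in the others, against 13.3% to 25.7% in control. Its log2 change was 0.94 (edgeR adjusted p = 0.102), or 1.28 without that library (adjusted p = 0.000395).

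RBM39 rose in intron reads (log2 1.25, edgeR adjusted p = 0.00123), beside 1.03 for its exon reads in edgeR (adjusted p = 4.07e-07). Its intron share was 6.19% in metformin replicate 1 and 11.3% to 18.2% in the others, against 10.2% to 15.0% in control, and the ratio changed by 0.13 on the log2 scale (edgeR adjusted p = 0.749). SON had 1.62% in metformin replicate 1 and 3.43% to 4.48% in the others, against 3.44% to 5.26% in control (log2 change -0.26, edgeR adjusted p = 0.444). On unique reads, an alternative added after seeing the data, the change of SON was 1.25 (edgeR adjusted p = 0.0482), the opposite direction. That value rests on few reads, with 12 to 37 unique intron reads of SON in metformin and 4 to 11 in control. All intron reads of SON numbered 48 to 627 in metformin and 200 to 439 in control. GART and DONSON overlap SON on the opposite strand, and their part in these values was not tested. TRA2B had a log2 change of the ratio of -0.26 (edgeR adjusted p = 0.785), which was 0.24 without metformin replicate 1 (adjusted p = 0.464). SRSF2 had no intron read in any library.

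The ratio was also counted by whether the annotation holds a retained intron. Of the 31 members with a retained-intron transcript, 29 were tested and 6 had a higher and 2 a lower ratio, with a median log2 change of 0.20. Of the 17 without, 9 were tested and 2 were higher, with a median of 0.21. Over all genes tested 20.3% were higher and 14.5% lower. Leaving out metformin replicate 1, 15 of the 29 were higher with a median of 0.46, and 4 of the 9 with a median of 0.36. Over all genes 34.8% were then higher and 21.5% lower. The difference between members with and without a retained-intron transcript was not tested.

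Reads that cross an exon junction are a measure of spliced RNA, and their ratio to the other exon reads of the gene was tested in the same way in 40 of the 48 genes. Over whole libraries, junction reads took 45.8% ± 3.88 of exon reads in metformin and 45.5% ± 0.768 in control (SD, n = 6 each; exact permutation test, two-sided, p = 0.957). Metformin replicate 1 was at 38.1% and the other metformin libraries at 45.7% to 48.1%, and without it the shares differed by 1.81 percentage points (exact p = 0.0173). None of the 40 genes was called by edgeR's quasi-likelihood test over all libraries, where 0.0969% of all genes were higher and 0.0388% lower. CLK4, SRSF5, SRSF8 and RSRP1 were at an unadjusted p under 0.05 but did not pass the adjustment (edgeR adjusted p of 0.114 to 0.552). SRSF8 rests on few reads, 6 to 19 junction reads in metformin and 8 to 17 in control. Limma on the log ratio also called none of the 40. With the median of all genes set to 0, CLK4 and RSRP1 were called higher, where 0.766% of all genes were higher and 0.523% lower.

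Without metformin replicate 1, 6 of the 40 were higher (RSRP1, CLK3, CLK4, RBM39, HNRNPDL and HNRNPH3) and SRSF5 was lower, where 2.37% of all genes were higher and 1.11% lower. RSRP1 had 22.2% junction reads in metformin replicate 1 and 32.9% to 36.8% in the other metformin libraries, against 19.2% to 22.3% in control. CLK4 had 56.8% in metformin replicate 1 and 74.8% to 80.7% in the others, against 58.4% to 67.4% in control. In both genes the 5 other metformin libraries lay above the control range, with log2 changes of the ratio without metformin replicate 1 of 1.05 for RSRP1 (edgeR adjusted p = 7.22e-06) and 1.02 for CLK4 (adjusted p = 0.000594). These are the same 2 genes whose intron to exon ratio fell, a measure that shares its exon reads with this one.

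SRSF5 went the other way. Junction reads made up 41.3% of its exon reads in metformin at the median (22.5% to 42.7%), against 49.2% in control (47.4% to 51.6%), without overlap. The log2 change was -0.71 over all libraries (edgeR adjusted p = 0.552) and -0.51 without metformin replicate 1 (adjusted p = 0.0024). CLK2 also had a lower share without overlap, 56.9% in metformin (21.2% to 58.8%), against 62.2% in control (59.1% to 65.8%), but did not pass with or without that library (adjusted p = 0.836 and 0.116). These were the only members without overlap in this share over all libraries, where 0.892% of all genes lay higher and 1.46% lower without overlap. With metformin replicate 1 left out, the 6 members called higher also lay wholly above control, where 2.88% of all genes did and 1.51% lay below. HNRNPUL1, whose intron share was higher in metformin, had 3.68% junction reads in metformin replicate 1 and 34.6% to 46.2% in the others, against 37.0% to 48.3% in control, an overlap.

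**Figure D5:**
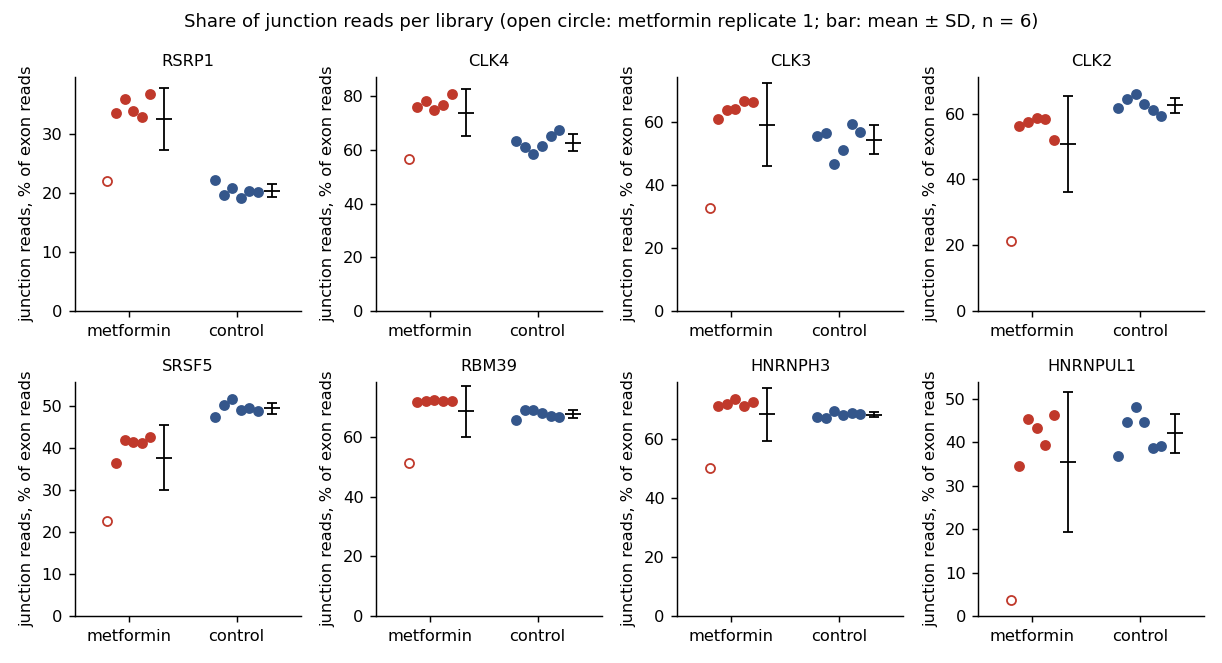
Junction reads as a percentage of exon reads per library for 8 genes, metformin left of control, with the mean and SD beside the points (n = 6 each) and metformin replicate 1 as an open circle. Metformin replicate 1 is the lowest metformin library in each gene shown. The other metformin libraries lie above control in RSRP1, CLK4, CLK3, RBM39 and HNRNPH3, and all metformin libraries lie below control in SRSF5 and CLK2.

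Other genes of the splicing machinery were counted in 8 lists of 105 genes, of which 104 were tested in TPM: 9 were higher, 22 lower and 73 not called, with a median log2 fold change of -0.15. The counts without metformin replicate 1 were 25 higher and 29 lower, where 17.1% of all genes were higher and 49.3% lower. In edgeR they were 46 higher and 8 lower, where 24.5% of all genes were higher and 26.0% lower. Of 13 kinases, phosphatases and import factors that act on SR proteins, 5 were lower in limma. At their head was PPP1R8, a nuclear inhibitor of protein phosphatase 1, at 30.2 ± 7.76 TPM in metformin and 76.8 ± 5.01 TPM in control (SD, n = 6 each; log2 fold change -1.36, limma adjusted p = 2.78e-05). In edgeR 5 of the 13 were higher and 3 lower.

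Of 6 genes of the U1 snRNP, which binds 5′ splice sites, and its LUC7-like partners, 3 were higher, with LUC7L3 at 87.1 ± 14.4 TPM in metformin and 53.6 ± 3.98 TPM in control (log2 fold change 0.67, limma adjusted p = 0.000351). The Sm proteins had 2 higher and 1 lower of 8, led by SNRPB (0.41) and SNRPD1 (-0.49). The U2 snRNP and U2AF had 1 higher, U2AF1 (0.49), and 3 lower of 14, led by SNRPA1 (-0.54). The tri-snRNP had 4 lower of 13, led by PRPF4 (-1.25). These limma counts, and those of the lists above and below, stand beside 8.0% higher and 41.8% lower over all genes.

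Of 16 genes of nonsense-mediated decay and the exon junction complex, which act on transcripts with premature stops, 1 was higher and 5 lower. EIF4A3, the helicase that anchors the junction complex, rose to 390 ± 69.5 TPM in metformin, against 192 ± 4.17 TPM in control (SD, n = 6 each; log2 fold change 0.99, limma adjusted p = 2.02e-05). SMG9, a partner of the decay kinase SMG1, fell to 6.85 ± 0.982 TPM in metformin, against 17.6 ± 0.55 TPM in control (log2 fold change -1.25, limma adjusted p = 4.01e-07). Among 15 speckle and SR-related coactivators 1 was higher (LUC7L3) and 1 lower (SCAF1, -0.56), and among 21 other splicing regulators 2 were higher, led by PTBP1 (0.42), and 3 lower, led by CIRBP (-0.84). In the intron to exon ratio, 19 of the 104 genes were higher and 6 lower, with a median log2 change of 0.13, where 20.3% and 14.5% of all genes were.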

How the data were processed

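RNA-seq libraries were made from 6 metformin and 6 control cultures of LN229, and the authors deposited 1 table per library. The TPM and RPKM values were computed by the authors, and RPKM was not used. The deposited counts are raw numbers of exon, intron and junction-crossing reads for each gene, not normalized by the authors. In every row junction reads did not exceed exon reads. Fractions of intron and unique reads given by the authors were not used. The aligner, the read counter and the use of strand were not given in the sources used here. Overlapping genes may therefore share reads. The submitters' processing notes name a mouse build, but gene identifiers and positions are human. Rows that share a symbol were summed.

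Groups came from the sample titles. TPM was tested with limma 3.58.1 (trend) on log2(TPM + 1) for every gene that averaged 1 TPM or more. The paper names limma on TPM and the adjusted p, while the log scale, the trend and the filter were chosen here. Fold changes on this scale understate those of low genes. Intron reads (TMM factors from exon reads), the ratio of intron to exon reads and the ratio of junction to other exon reads were tested with edgeR 4.0.16 for genes that averaged 10 or more reads of each class. R 4.3.3 was used, and DESeq2 1.42.0 as an alternative. All p-values were adjusted by Benjamini-Hochberg over all genes tested. Shares over whole libraries were compared with an exact permutation test over 924 splits, or 462 where 1 library was left out. The smallest p over the 924 splits is 0.00216. The tests were also run on simulated data, but no outcome of that run is given here. It is therefore no evidence of how the tests handle a library like metformin replicate 1.

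The members, the pathway lists and the tests were chosen with earlier results of these data known. Genes given in full were the CLK, TRA2 and speckle genes, up to 4 called rises and falls in TPM in each family, and the 3 largest called changes of the ratio in each family. Alternatives were the pseudocount, the filters, scaling, centring, the tool, a replicate block and leaving out each library. Tests on unique reads were added after seeing the data. No protein features were computed.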

Additional observations from a re-analysis of the deposited data

Results flagged for a closer look

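In 22 of 82 groups of 6 libraries tested, 1 library lay far from the rest by Dixon's test. In 19 of the 22 it was metformin replicate 1, and chance gives about 1 in 20, or 4.1. The groups are genes and measures of the same 12 libraries, so they are not independent and 1 library can be flagged many times. In TPM metformin replicate 1 lay far below the other metformin libraries for CLK1 (19.1), CLK4 (3.04), TRA2A (51.5), TRA2B (61.6), RBM39 (63.8), RSRP1 (67.0) and HNRNPUL2-BSCL2 (0.134). In the share of intron reads it lay below them for CLK1 (3.81%) and SON (1.62%). In the share of junction reads it lay below them for CLK1 (66.3%), CLK2 (21.2%), CLK3 (32.6%), CLK4 (56.8%), TRA2A (15.9%), TRA2B (29.7%), RBM39 (51.1%), RSRP1 (22.2%), HNRNPUL1 (3.68%) and HNRNPUL2 (26.6%).

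The other 3 were control libraries. HNRNPA1L2 had 27.7 TPM in control replicate 1, against 19.2 to 21.7 in the other control libraries. SRSF8 had an intron share of 0.381% in control replicate 4, against 0.806% to 1.03% in the others, and TRA2B had a junction share of 53.9% in control replicate 1, against 56.3% to 57.3% in the others. The cause of these values was not tested.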

How the results depend on the processing

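Counts of genes higher in expression moved with the scaling and the tool. Among the members 26 were higher with median-ratio scaling, edgeR TMM and edgeR RLE, 29 with DESeq2 and 27 in edgeR on unique reads. Over all genes 2649, 2768, 2941, 3267 and 2748 were higher and 2887, 2937, 2789, 2987 and 2906 lower under median-ratio scaling, edgeR TMM, edgeR RLE, DESeq2 and unique reads, and 1642 were higher without the filter. At a minimum mean of 50 intron reads 2482 genes rose and 1297 fell in intron reads, and 823 fell in the ratio, where fewer genes were tested. For the ratio, limma called 1 member lower. For junctions, centring called 2 members, 79 genes higher and 54 lower, a replicate block 1 and 0 genes, and the filter of 50 reads 2 lower. Leaving out each library in turn gave 1 to 20 members higher and 2 to 8 lower in TPM (811 to 1933 and 4156 to 5574 of all genes), 17 to 28 higher in intron reads (3439 to 4556 and 2385 to 3080), 6 to 19 higher and 1 to 2 lower in the ratio (1684 to 3605 and 1245 to 2225), and 0 to 6 higher and 0 to 1 lower in junctions (3 to 245 and 2 to 115). The library shares differed by -0.071 to 0.60 points for introns and -0.20 to 1.81 for junctions. Expression changes of 16 to 18 members turned positive with these settings, among them, in the order of median-ratio scaling, edgeR TMM, edgeR RLE, DESeq2 and unique reads, TRA2B (0.26, 0.24, 0.27, 0.27, 0.25), HNRNPUL1 (0.23, 0.20, 0.23, 0.23, 0.20), HNRNPUL2 (0.16, 0.13, 0.16, 0.16, 0.41), and, with all but median-ratio scaling, HNRNPUL2-BSCL2 (0.51, 0.53, 0.53, 1.58). Over the fits that left out 1 library, TPM changes ranged over -0.24 to 0.059 for TRA2B and -0.62 to 0.51 for HNRNPUL2-BSCL2, and ratio changes over -0.055 to 0.44 for CLK1 and -0.52 to 0.24 for TRA2B. Those of TRA2B and HNRNPUL2-BSCL2 were positive only without metformin replicate 1, and that of CLK1 was negative without any 1 of metformin replicates 3 to 6. The ratio of CLK1 also turned with centring (-0.059) and limma (-0.086), that of RBM39 with centring (-0.0040), and that of SON on unique reads (1.25). On unique reads the ratio was higher in 6 members and lower in 2, without HNRNPA2B1 (0.36). The cause was not tested. With the replicate number as a block, the members called were 2 higher and 2 lower in TPM, 16 and 0 in intron reads, 7 and 2 in the ratio and 0 in junctions, without HNRNPA1L2 in TPM and RSRP1 and HNRNPDL in intron reads. The numbers were not read as pairs: same-numbered libraries correlated at -0.65 to 0.72. Low intron counts limit CLK4 and SRSF8, and low unique intron counts limit SON.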
